A study of Mus musculus with 2 samples.

Results

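The myeloid C-type lectin receptors described here were 9 genes (Clec4a1, Clec4a2, Clec4a3, Clec4d, Clec4e, Clec4n, Clec7a, Clec12a and Clec5a) of the 24346 gene symbols measured by RNA-seq in mouse omentum. They were chosen by symbol, as C-type lectin receptors of macrophages, monocytes and neutrophils, and each of the 9 symbols had a value in both libraries.

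The omentum is visceral fat whose milky spots, lymphoid aggregates under the mesothelium, hold macrophages, lymphocytes and stromal cells. The study asked how stromal cells of the milky spots recruit lymphocytes, and for this it profiled whole omenta by RNA-seq. One library was made from the omentum of WT mice and 1 from that of Postn-DTR mice, both of which had received diphtheria toxin (DT), and both were collected 5 days after DT. In Postn-DTR mice, made in C57BL/6 zygotes, a diphtheria toxin receptor cassette sits in the first coding exon of 1 copy of Postn, which makes cells that use the Postn promoter sensitive to DT, and this promoter is also active in cells of other tissues. The study gave DT i.p. at a single low dose for ablation. The age and sex of the mice and whether a library pooled several animals were not given for these libraries in the sources used here.

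C-type lectin receptors are membrane proteins with which myeloid cells bind sugars and lipids of microbes and components of damaged cells. Clec4d (MCL), Clec4e (Mincle) and Clec4n (Dectin-2) signal through the adaptor FcRγ, whereas Clec7a (Dectin-1) carries an activating motif in its own tail and Clec5a (MDL-1) pairs with the adaptor DAP12. These routes meet at the kinase Syk and the scaffold protein Card9, which lead to NF-κB activation and the production of cytokines and chemokines. Clec12a (MICL) and Clec4a2 (DCIR) carry inhibitory motifs that recruit phosphatases, and Clec4a1 and Clec4a3 are relatives of Clec4a2. MCL and Mincle recognise the mycobacterial glycolipid trehalose dimycolate and can form a complex with each other.

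The genes of the 9 receptors all lie on chromosome 6 (GRCm38, GENCODE M21). Clec4a1 (ENSMUSG00000049037), Clec4a3 (ENSMUSG00000043832), Clec4a2 (ENSMUSG00000030148), Clec4n (ENSMUSG00000023349), Clec4d (ENSMUSG00000030144) and Clec4e (ENSMUSG00000030142) belong to a run of lectin genes from 122921848 to 123289870. Clec4d occupies 123262111 to 123275265 on the plus strand, and Clec4e 123281789 to 123289870 on the minus strand, so that their 3′ ends face each other across 6523 bases. Clec12a (ENSMUSG00000053063) and Clec7a (ENSMUSG00000079293) lie in a second run from 129342691 to 129507165, and Clec5a (ENSMUSG00000029915) lies apart at 40574894 to 40585821 on the minus strand.

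The 250 bases before the RefSeq transcript start are shown for Clec4d and Clec4e, the pair with the largest differences between the libraries, and for Clec4a1, the receptor with the highest level in WT, for comparison. The windows are chr6:123261857-123262106 on the plus strand for Clec4d, chr6:123289872-123290121 on the minus strand for Clec4e and chr6:122921598-122921847 on the plus strand for Clec4a1 (RefSeq, GRCm38.p6). Each is written 5′ to 3′ and ends at the base before the start, and none overlaps an annotated exon. Capitals mark matches on either strand to the core PU.1 motif GAGGAA, the C/EBP motif TTGCNNAA, the AP-1 motif TGANTCA or the TATA box TATAAA.
Clec4d: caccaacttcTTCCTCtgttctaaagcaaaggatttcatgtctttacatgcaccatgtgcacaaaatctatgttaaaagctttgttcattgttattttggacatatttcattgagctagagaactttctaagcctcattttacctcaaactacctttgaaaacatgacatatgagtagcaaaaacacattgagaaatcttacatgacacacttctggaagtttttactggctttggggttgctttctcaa
Clec4e: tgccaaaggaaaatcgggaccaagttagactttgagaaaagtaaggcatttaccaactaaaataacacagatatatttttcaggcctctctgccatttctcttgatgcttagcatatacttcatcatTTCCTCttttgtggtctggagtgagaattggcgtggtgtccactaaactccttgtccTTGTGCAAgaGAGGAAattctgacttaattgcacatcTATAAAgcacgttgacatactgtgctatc
Clec4a1: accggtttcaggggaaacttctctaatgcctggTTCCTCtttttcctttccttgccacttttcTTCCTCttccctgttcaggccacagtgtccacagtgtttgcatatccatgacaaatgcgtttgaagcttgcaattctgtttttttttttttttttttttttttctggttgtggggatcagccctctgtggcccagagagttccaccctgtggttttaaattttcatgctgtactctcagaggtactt
The Clec4e window held a TATA box that begins 29 bases before the start, PU.1 core matches at 56 and 123 bases and a C/EBP match at 66 bases before it. In the Clec4d window a single PU.1 core match was present, 240 bases before the start, and in the Clec4a1 window there were matches at 217 and 187 bases. PU.1 and C/EBP proteins are transcription factors of myeloid cells. The promoter table held 8 of the 9 receptors, all but Clec4n, and the windows of Clec4a2, Clec12a and Clec5a overlap annotated exons. A PU.1 core was found before 6 of these 8 receptors (Clec4a1, Clec4d, Clec4e, Clec7a, Clec12a and Clec5a) and before 23.3% of the 32851 promoters searched, where windows of the same length were used. The C/EBP motif was found before Clec4e and Clec12a and before 9.56% of all promoters, the TATA box before Clec4a2, Clec4e and Clec5a and before 12.4%, and the AP-1 motif before Clec12a and before 6.75%. A match is a description of these letters and not a measured binding site. The PU.1 core was the motif that the Clec4d and Clec4e windows had in common.

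For the whole library, the targeted gene Postn had 58.3 FPKM in the WT library and 16.2 FPKM in the Postn-DTR library, a lower value in the library labelled Postn-DTR. FPKM divides the fragments of a gene by its transcript length and by the mapped fragments of the library, so that levels of different genes can be compared per length. The depth behind the FPKM was estimated from low values, at near 23400000 fragments in WT against 24300000 in Postn-DTR. The 10 pancreatic acinar markers summed to 8635 FPKM in the WT library and 17.5 FPKM in the Postn-DTR library. The FPKM of all genes summed to 542190 in the WT library and 671882 in the Postn-DTR library. The totals thus differed with the acinar markers still included. Removing these markers and bringing both libraries to the same total multiplied the Postn-DTR values by 0.794. Under this scaling, which combines both steps, the median change of all other genes moved by -0.29 on the log2 scale. A single library per genotype gives no spread between replicates, so no difference below has a replicate check or a p-value. Intervals quoted for ratios are 95% exact binomial intervals on estimated fragments, and they cover counting error only.

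The receptors differed in how far they moved. Clec4d and Clec4e were 4.78-fold and 6.07-fold higher in Postn-DTR than in WT by the ratio of FPKM, and the ratios of the other 7 receptors lay between 0.934 and 1.39. On the scale used to compare all genes, the difference of log2(FPKM + 1) between Postn-DTR and WT, 2 of the 9 receptors were at least 2-fold higher, against 509 of the 13127 genes compared (3.88%). At least 2-fold lower were 0 of the 9 receptors, against 410 genes (3.12%). Genes were compared when their mean FPKM over the libraries was at least 1, and all 9 receptors met this. In whole tissue, more cells of a type and more RNA per cell cannot be told apart.

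Clec4d, which encodes MCL, had 13.5 FPKM in the WT library and 64.5 FPKM in the Postn-DTR library. The WT value rested on about 352 fragments and the Postn-DTR value on about 1745. The ratio was 4.78 (95% counting interval 4.25 to 5.37) and the change on the log2(FPKM + 1) scale 2.17, a change exceeded by 109 genes (0.830% of those compared). Clec4d was the fifth most abundant of the 9 receptors in WT and the most abundant in Postn-DTR.

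Clec4e, which encodes Mincle, had 2.0 FPKM in the WT library and 12.1 FPKM in the Postn-DTR library. This corresponded to about 108 and 681 fragments, and the ratio was 6.07 (4.95 to 7.51). Its log2(FPKM + 1) change was 2.13, exceeded by 116 genes (0.884%). The ratio was above that of Clec4d while the log2(FPKM + 1) change was below it, because the added 1 weighs more on the low WT level of Clec4e. The counting intervals of the ratios overlapped, and which of the pair had the larger ratio was not tested. Clec4d was the more abundant of the pair in both libraries, at 6.75 times the FPKM of Clec4e in WT and 5.31 times in Postn-DTR.

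Clec4n, which encodes Dectin-2 and lies 15089 bases upstream of Clec4d on the same strand, had 8.13 FPKM in the WT library and 11.3 FPKM in the Postn-DTR library. Its ratio was 1.39 (1.15 to 1.70), so that neither interval of the Clec4d and Clec4e ratios reached the Clec4n interval. The proportions among the receptors that use FcRγ differed between the libraries. The FPKM of Clec4d was 1.66 times that of Clec4n in WT and 5.69 times in Postn-DTR, and that of Clec4e was 0.246 times that of Clec4n in WT and 1.07 times in Postn-DTR.

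**Figure D1:**
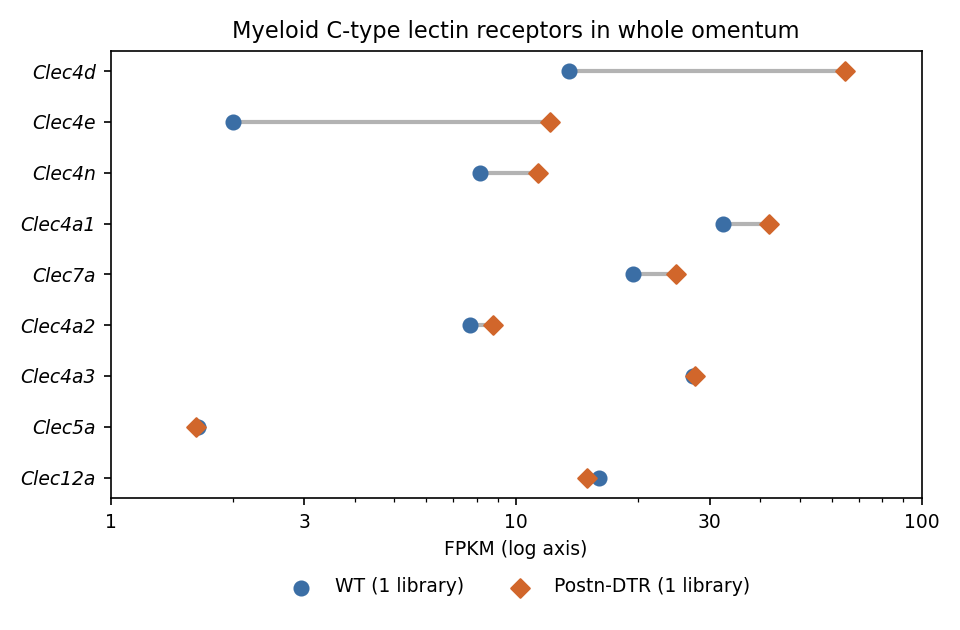
FPKM of the 9 receptors on a log axis, with a circle for the WT library, a diamond for the Postn-DTR library and a line between them, ordered by the log2(FPKM + 1) change. Clec4d runs from 13.5 to 64.5 and Clec4e from 2.0 to 12.1, while the symbols of Clec4a3, Clec5a and Clec12a nearly coincide.

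The receptors that signal without FcRγ showed small differences. Clec7a, the β-glucan receptor Dectin-1, had 19.4 FPKM in the WT library and 24.8 FPKM in the Postn-DTR library, a ratio of 1.28 (1.07 to 1.53). Clec5a, which encodes the DAP12-coupled MDL-1, was the least abundant receptor in both libraries, with 1.64 FPKM in the WT library and 1.63 FPKM in the Postn-DTR library. Its value rested on between 24.9 and 136 fragments in WT, depending on the transcript. Its ratio of 0.991 had a counting interval from 0.556 to 1.81 by the shortest transcript, which gives the widest interval. The annotation lists Clec7a as a polymorphic pseudogene, a class for genes that are intact in some mouse strains and disrupted in others.

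Of the inhibitory receptors and their relatives, Clec4a1 was the most abundant receptor in WT, with an FPKM of 32.3, and had 42.0 in Postn-DTR, a ratio of 1.30 (1.20 to 1.41). Clec4a3 had 27.4 FPKM in the WT library and 27.6 FPKM in the Postn-DTR library, a ratio of 1.01 (0.903 to 1.13). Clec4a2, the inhibitory DCIR, had 7.68 in WT against 8.78 in Postn-DTR, a ratio of 1.14 (0.898 to 1.46). Clec12a, whose product MICL binds uric acid crystals and restrains myeloid activation, had 16.02 in WT against 15.0 in Postn-DTR, a ratio of 0.934 (0.848 to 1.03). The counting intervals of Clec4a2, Clec4a3 and Clec12a held a ratio of 1, as did that of Clec5a.

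The small differences depended on the scaling of the libraries. With the acinar markers removed and the totals made equal, the log2(FPKM + 1) change of Clec4a2 went from 0.17 to -0.12 and that of Clec4a3 from 0.01 to -0.31. The changes of Clec4n, Clec4a1 and Clec7a went from 0.43 to 0.13, from 0.37 to 0.04 and from 0.34 to 0.02 and kept their sign, and Clec12a went from -0.09 to -0.40. Clec4d stayed at 1.85 and Clec4e at 1.83 under this scaling, both above the 2-fold limit.

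**Figure D2:**
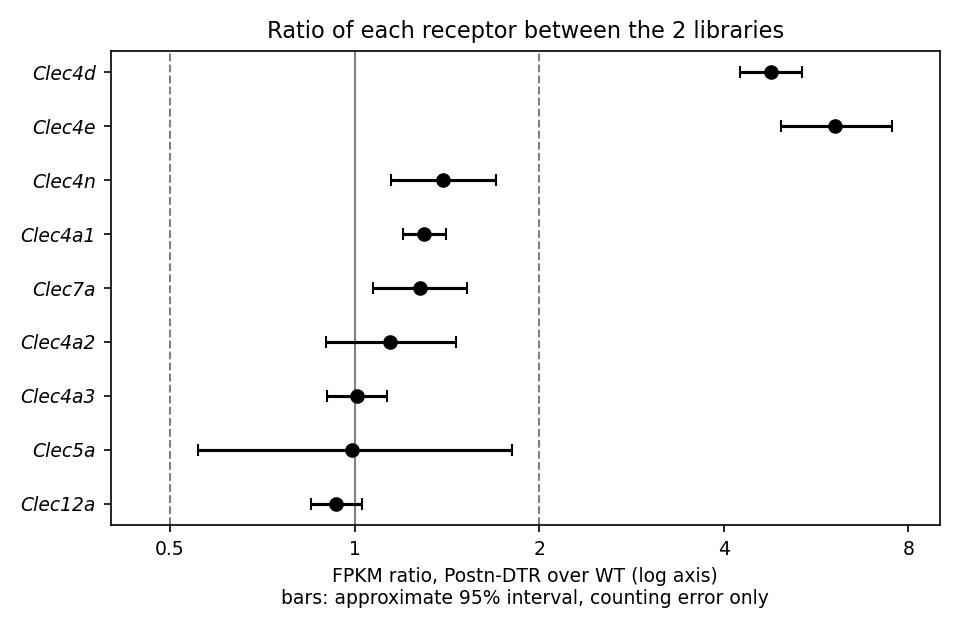
Ratio of FPKM, Postn-DTR over WT, for the 9 receptors on a log axis; points are the ratios, bars the 95% counting intervals, the solid line marks a ratio of 1 and the dashed lines 2-fold. The intervals of Clec4d and Clec4e lie above 4, and those of the other 7 receptors end below 2.

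Counted as a group, the 9 receptors summed to 128.1 FPKM in the WT library and 207.8 FPKM in the Postn-DTR library, a ratio of 1.62. Without Clec4d and Clec4e the sums were 112.6 and 131.2, a ratio of 1.16. Clec4d alone made up 10.5% of the summed FPKM in WT and 31.0% in Postn-DTR, while the share of Clec4a1 was 25.2% in WT and 20.2% in Postn-DTR, that of Clec4a3 21.4% and 13.3%, and that of Clec12a 12.5% and 7.19%. The median log2(FPKM + 1) change of the 9 receptors was 0.34, and that of the 7 others was 0.17, beside a median of 0.02 over all genes compared, whose 5th and 95th percentiles were -0.79 and 0.87.

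The order of levels in WT was Clec4a1, Clec4a3, Clec7a, Clec12a, Clec4d, Clec4n, Clec4a2, Clec4e and Clec5a. Exact Poisson intervals on the estimated fragments overlapped for Clec7a and Clec12a, Clec12a and Clec4d, Clec4n and Clec4a2, and Clec4e and Clec5a. Overlap of 2 intervals is not a test of order, and the order of neighbours was not tested. In Postn-DTR the order was Clec4d, Clec4a1, Clec4a3, Clec7a, Clec12a, Clec4e, Clec4n, Clec4a2 and Clec5a, with overlap between Clec4a3 and Clec7a, between Clec4e and Clec4n, and between Clec4n and Clec4a2. With Clec4d and Clec4e set aside, the other 7 receptors kept the same order in both libraries. The genes nearest to the median level of the receptors in both libraries, by distance on the log2(FPKM + 1) scale over these 2 libraries, were Prpf31, Gkap1, Fam216a, Ankrd52 and Shkbp1, whose changes lay between 0.12 and 0.15.

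Along the chromosome, the differences did not extend over whole gene runs. The run from Clec4a1 to Clec4e spans 368 kb and has 9 genes in the table, of which 7 were compared. Clec4d and Clec4e, at its distal end, were at least 2-fold higher in Postn-DTR, and Clec4b1, in its middle, was at least 2-fold lower, with 8.62 FPKM in the WT library and 3.02 FPKM in the Postn-DTR library. Clec4a4 and Clec4b2, relatives in the same run, were under the expression minimum. The run from Clec12a to Olr1 spans 164 kb, and 6 of its 7 listed genes were compared. Within it Clec12a and Clec7a stayed within 2-fold, Clec1b, the platelet and macrophage receptor CLEC-2, went from 0.266 to 5.54 and Olr1, the oxidised LDL receptor LOX-1, from 0.329 to 2.99, while Clec9a, a receptor of cross-presenting dendritic cells, went from 5.85 to 1.62. The WT values of Clec1b and Olr1 rested on about 1.52 and 1.98 fragments by the shortest transcript, and their ratios of 20.8 and 9.11 had wide counting intervals, from 4.06 to 137 for Clec1b and from 2.21 to 81.0 for Olr1. Clec1b and Clec9a overlap by 474 bases on the same strand, so their reads may be shared. Clec4a4, Clec4b1, Clec4b2 and Clec9a were named for their position after their values were seen.

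**Figure D3:**
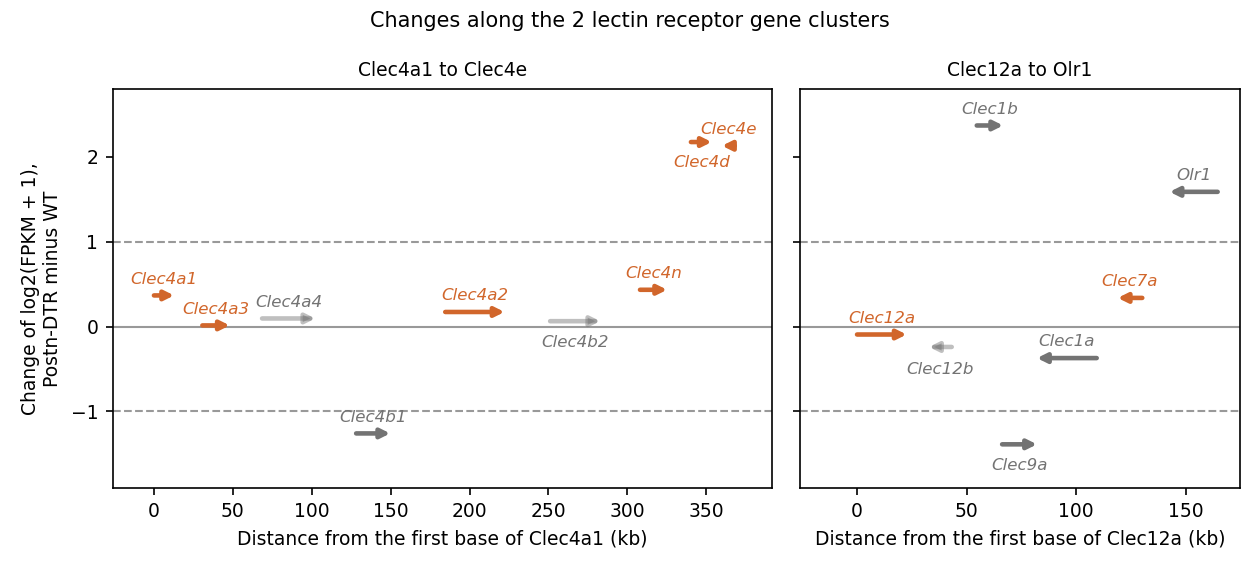
Difference in log2(FPKM + 1) between Postn-DTR and WT along the 2 lectin gene runs, against the distance in kb from the first gene's first base; arrows span each gene in its direction of transcription, orange for the 9 receptors, grey for other genes and pale for genes under the expression minimum. Clec4d and Clec4e stand at 2.17 and 2.13 at the end of their run, and the other receptors lie between -0.09 and 0.43.

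Few stretches of the receptor transcripts were shared with other genes. No 50-base stretch of Clec4a1, Clec4a3, Clec4d, Clec4e, Clec7a or Clec5a transcripts occurred in a transcript of another gene, and the shared part was 0.402% for Clec12a, 0.686% for Clec4n and 6.69% for Clec4a2.

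The adaptor genes Fcer1g and Tyrobp were at least 2-fold higher in Postn-DTR, and Syk stayed within 2-fold. Fcer1g, which encodes FcRγ, had 245 FPKM in the WT library and 507 FPKM in the Postn-DTR library, a ratio of 2.07 (1.98 to 2.17), and Tyrobp, which encodes DAP12, had 357 and 853, a ratio of 2.39 (2.29 to 2.50). Card9 went from 9.04 to 18.9, a ratio of 2.09 (1.85 to 2.37), although its log2(FPKM + 1) change of 0.99 stayed just under the 2-fold limit. Syk had 46.5 in WT against 48.6 in Postn-DTR, a ratio of 1.05 (1.01 to 1.09), and its log2(FPKM + 1) change of 0.06 turned to -0.26 with the acinar markers removed and equal totals. Of the 16 signalling genes listed, all compared, 2 were at least 2-fold higher and 0 lower, and their median change was 0.17, which turned to -0.15 with the acinar markers removed and equal totals. The lowest changes were those of Malt1, the protease partner of Card9, at -0.38 and of the phospholipase Plcg2 at -0.21. With the acinar markers removed and equal totals, the changes of Fcer1g and Tyrobp went from 1.05 to 0.72 and from 1.25 to 0.92, under the 2-fold limit. Fcer1g and Tyrobp also serve Fc receptors and TREM proteins, so their levels are not specific to the lectin receptors.

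For the inhibitory side, the phosphatases recruited by inhibitory motifs stayed within 2-fold, with a median change of -0.06. Ptpn6 (SHP-1) had 81.9 FPKM in WT against 61.3 in Postn-DTR, Ptpn11 (SHP-2) 29.6 and 28.3, and Inpp5d (SHIP-1) 26.8 and 35.4. The 4 genes reported to encode endogenous ligands of C-type lectin receptors also stayed within 2-fold. Sap130, a ligand of Mincle in dead cells, had 14.1 FPKM in WT against 11.3 in Postn-DTR. Among reported ligands of Dectin-1, Lgals9 had 99.4 and 114, Vim had 883 and 836, and Anxa1 had 222 and 290.

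Cytokines and mediators known to be made after signalling by these receptors, and by many other receptors, included 9 compared genes of 13 listed. Of these 7 were at least 2-fold higher in Postn-DTR and 0 lower, and the median change was 1.97. These values depended on low levels: with a pseudocount of 5 the number higher was 4 and the median 0.96, over all 13 genes without a filter the median was 1.01, and with a minimum mean FPKM of 10 the sole gene left, Cxcl1, had a change of 3.69. The neutrophil chemoattractant Cxcl1 had 1.78 FPKM in the WT library and 34.9 FPKM in the Postn-DTR library, a ratio of 19.6 (13.6 to 29.1), and Csf3, the granulocyte growth factor, had 0.0739 and 10.1, where the WT value rested on about 2.08 fragments and the ratio of 137 had a counting interval from 39.2 to 1186. Tnf and the inflammasome gene Nlrp3 stayed within 2-fold, Tnf with 3.76 FPKM in WT against 2.26 in Postn-DTR, a change of -0.55, and Nlrp3 with a change of 0.48. These libraries do not show which receptor or cell the transcripts came from.

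Set beside other receptor lists, Clec4d and Clec4e were among several genes with large differences. Of 16 Fc and DAP12-linked receptors compared, 7 were at least 2-fold higher and 1 lower, with a median change of 0.89. Trem1, an amplifying receptor of neutrophils and monocytes, had 0.167 FPKM in WT against 11.8 in Postn-DTR, Fcgr4 had 11.8 and 136, and Sirpb1a was lower, with a change of -1.11. Of the 12 Toll-like receptors and co-receptors, 2 were higher, Cd14 at 33.6 and 230 and Tlr13 at 6.63 and 21.7, and 1 was lower, Tlr9 at 10.003 and 3.69, with a median change of 0.46. The 26 other C-type lectin-like receptors compared had a median change of -0.40, with 3 higher and 6 lower, or 2 and 2 with a pseudocount of 5. This list is not confined to myeloid cells. Clec1b and Olr1 were the highest of the 26. The lowest were Clec3b, which encodes tetranectin, at 354 in WT against 102 in Postn-DTR, and Mgl2, at 60.9 and 22.3. Mgl2 is a galactose-type lectin of dendritic cells and macrophages. The paper names Clec3b among the genes high in a cluster of omental fibroblasts. It assigns this cluster to Aldh1a2+ fibroblastic reticular cells, which it reports as ablated by DT in Postn-DTR mice. Clec4f, a lectin of liver Kupffer cells, was listed at 0 in both libraries. Whether these lists differ from the 9 receptors was not tested.

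**Figure D4:**
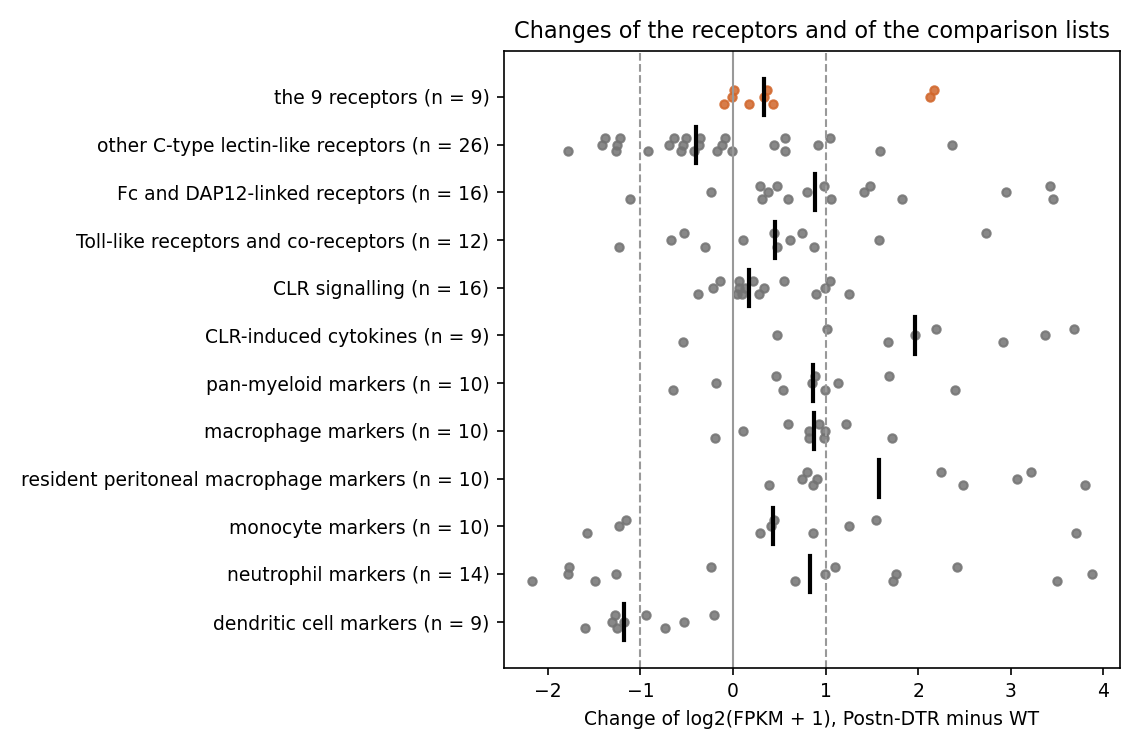
Difference in log2(FPKM + 1) between Postn-DTR and WT for the 9 receptors (orange) and for the compared genes of other receptor, signalling and marker lists (grey), 1 point per gene; black bars are medians, the dashed lines 2-fold. The receptors have a median of 0.34 with Clec4d and Clec4e at the far right, the cytokine list has a median of 1.97, and all 9 dendritic cell markers lie below 0. The signalling median of 0.17 turns to -0.15 with acinar markers removed and equal totals.

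Of the 10 pan-myeloid markers, 3 were at least 2-fold higher in Postn-DTR, as Clec4d and Clec4e were, and 7 stayed within 2-fold. They summed to 3053 FPKM in the WT library and 4831 FPKM in the Postn-DTR library, with a median change of 0.87. Itgam, which encodes CD11b, went from 46.8 to 252, a ratio of 5.38 (5.22 to 5.55), and Cd68 from 114 to 369, while Aif1 had a change of -0.65 and Lst1 of -0.19. The Itgam ratio lay inside the counting interval of the Clec4e ratio (4.95 to 7.51) and just above the upper bound of the Clec4d ratio (5.37). Itgam had the largest ratio of the 10 pan-myeloid markers, and the others had smaller ratios than Clec4d and Clec4e. Relative to Itgam, the FPKM of Clec4d stood at 0.289 in WT against 0.256 in Postn-DTR and Clec4e at 0.0427 and 0.0482. Relative to Clec12a, in contrast, Clec4d stood at 0.844 in WT against 4.32 in Postn-DTR. The choice of these denominators was made after the values were seen.

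The 10 macrophage markers summed to 2529 in WT against 4607 in Postn-DTR, with 2 higher (Adgre1 and Cd163) and 0 lower. With the acinar markers removed and equal totals, the change of Cd163 went from 1.22 to 0.89, which leaves 1 macrophage marker, Adgre1, higher. In the paper's cell counts at 5 days after DT, omental macrophage numbers were not altered, while total CD45+ leukocytes were fewer. Cell counts and RNA of whole tissue are different measures, and their relation in these libraries was not tested. The 10 markers of resident peritoneal macrophages summed to 630 and 1929, with 5 higher and 0 lower and a median change of 1.57, led by Prg4 at 38.0 and 545 and Alox15 at 33.1 and 317. Much of these sums came from Fn1, which had 459 in WT against 837 in Postn-DTR and also stands among the monocyte markers. Other markers of the resident list stayed within 2-fold, among them Timd4 at 29.6 and 39.2, Icam2 at 34.3 and 58.0 and Gata6 at 18.6 and 33.1. Of the 10 monocyte markers 3 were higher and 3 lower. Among them Chil3 went from 12.1 to 170 and Ly6c2 from 50.9 to 150, whereas Cx3cr1 went from 16.7 to 4.92 and Ccr2 from 39.6 to 16.4.

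Neutrophil markers also went both ways, with 6 of the 14 compared (of 15 listed) higher and 5 lower and summed levels of 479 in WT against 771 in Postn-DTR, and with a pseudocount of 5 the numbers were 3 and 3. Il1r2, a decoy receptor of mature neutrophils, went from 0.864 to 20.1, and Stfa2l1 was listed at 0 in WT and at 13.7 in Postn-DTR. The granule protein genes Ltf, at 12.4 and 1.98, and Ngp, at 48.0 and 13.2, which immature neutrophils transcribe, were lower. Of the other neutrophil markers, Mmp8 went from 1.32 to 6.82, while Mmp9 stayed within 2-fold, at 27.2 and 22.9. Neutrophil maturity was not tested. The 9 dendritic cell markers summed to 106 and 57.1, with 5 lower and 0 higher, and with a pseudocount of 5 none of them passed 2-fold and the median change went from -1.18 to -0.49. Ptprc, the pan-leukocyte gene for CD45, had 55.6 in WT against 35.4 in Postn-DTR. The part of these cell type differences in the values of Clec4d and Clec4e was not tested.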

How the data were processed

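Whole omentum was profiled by mRNA sequencing in 1 WT and 1 Postn-DTR library, grouped by the genotype labels. The authors deposited FPKM, 1 value per gene symbol. The submitters' processing notes name TopHat2 2.1.1, Bowtie2 2.2.8, SAMtools 0.1.18, Cuffdiff 2.2.1 and the build mm10; the annotation is not given in the sources used here.

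The change of a gene was log2(FPKM + 1) in Postn-DTR minus WT, over genes whose mean FPKM reached 1, and 2-fold counted as higher or lower. Single-gene ratios used FPKM without the pseudocount. Depth was estimated from genes with 1 GENCODE M21 transcript and FPKM under 0.2, as the denominator and length offset (210 bp) that made most values whole fragments: 76.5% of low values in WT and 76.0% in Postn-DTR lay within 0.08 of a whole number. Fragments used the shortest RefSeq-linked transcript, which gives the widest interval, and are approximate. The 2-fold rule was run on a copy of the WT values with known changes put into well-expressed genes without noise. That run checks the calculation and not counting or replicate error. The depth estimate was run on simulated fragments of known depth. Python 3.11.15, pandas 2.3.3, numpy 2.4.6 and scipy 1.17.1 were used.

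The receptors and the 24 gene lists were chosen with earlier results of these data known. Named genes were every receptor, Fcer1g, Tyrobp, Syk, Card9 and Postn, the 2 highest and 2 lowest changes of each other list, genes listed at 0, and the 5 genes nearest to the receptors' median. Of the list genes, 3 were not in the table used here. Alternatives were other pseudocounts, centring, scalings, filters and thresholds.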

Additional observations from a re-analysis of the deposited data

How the results depend on the processing

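With 1 library per genotype there was no replicate to leave out, and no paired analysis was possible because each genotype had a single library. The count of 2 receptors at least 2-fold higher was the same under all alternatives tried except a minimum mean FPKM of 10, which removes Clec4e and leaves 1, and 0 were lower under each of them. The median change of the receptors, 0.34, went to 0.020 with acinar markers removed and equal totals. Clec4d ranged from 1.85 to 2.25 and Clec4e from 1.29 to 2.54. Of the 9 receptors, 2 (Clec4a2 and Clec4a3) turned sign under a scaling.

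Over all genes, the number at least 2-fold higher went from 509 to 287 with a pseudocount of 5, 301 with acinar markers removed and equal totals, 303 with a minimum mean FPKM of 10, 1294 at 1.5-fold and 199 at 3-fold. The number at least 2-fold lower went from 410 to 643 with a pseudocount of 0.1, 168 with a pseudocount of 5, 732 with equal totals, 173 with the minimum of 10, 1160 at 1.5-fold and 153 at 3-fold. Of all genes past 2-fold, 55.4% were higher, and with equal totals 29.1%. The cause of these shifts was not tested. The alternatives were also applied to the counts of each comparison list, which was decided after the data were seen.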

Other observations

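Markers of cell types outside the myeloid lists were also compared. Of 5 T cell markers 4 were at least 2-fold lower in Postn-DTR and 0 higher, with a median change of -1.08, but with a pseudocount of 5 none passed 2-fold and the median was -0.80. Of 5 B cell markers 2 were lower, with a median of -0.75. Fcer2a, the low-affinity IgE receptor CD23 of follicular B cells and itself a C-type lectin, went from 30.5 to 3.10, while Cd79a had 191 and 170. The 5 adipocyte markers had a median change of -0.15 and none passed 2-fold, and the 5 mesothelial markers had a median of 0.27, which turned to -0.05 with acinar markers removed and equal totals, with Lrrn4 lower at 62.7 and 29.2.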
